A study of Mus musculus with 8 samples.

Results

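The 10 imprinted genes described here were followed in sorted fat cell precursors of mice with and without targeting of Tet3. They were H19, Igf2, Igf2r, Dlk1, Meg3, Peg3, Mest, Grb10, Cdkn1c and Plagl1, chosen by symbol as genes whose dosage is set by DNA methylation at imprinting control regions. All 10 have a row among the 35976 genes of the count table, and 9 of them passed the filter on low counts that left 9943 genes for testing. The gene that did not pass was Igf2. The libraries were made from poly(A) RNA of preadipocytes sorted from inguinal white fat. The donors were male mice kept on a high fat diet for 6 weeks, and the sort took PDGFRa+ cells that were CD45-, CD31- and TER119-. WT denotes 3 libraries of genotype Tet3 f/f, in which the Tet3 alleles are floxed, and KO denotes 3 libraries of genotype Pdgfra-Tet3 KO. The genotype is named after Pdgfra, the gene whose protein was also used for the sort, and the labels give neither the Cre line nor an age. Separate animals are not stated as the source of the libraries, and the p-values below reflect only the spread among these 6 libraries, which may be technical. Tet3 itself had 93, 127 and 104 counts in WT libraries 1 to 3 and 76, 87 and 79 in KO libraries 1 to 3. All 3 KO counts lay below the WT counts, but after scaling to library size the groups overlapped, and the difference did not pass (edgeR adjusted p = 0.710). Its row adds up deleted and retained exons and is no test of the deletion. Bisulfite sequencing of 1 pool per genotype after 14 weeks of diet gave regions of differing methylation, which were not placed at the imprinted loci here because the genome build of their positions is not stated.

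In genomic imprinting a gene is expressed mainly from the copy inherited from the mother or mainly from the copy inherited from the father. Differential methylation of CpG sites at imprinting control regions marks the parental copies, and it is set in the germ line and kept in somatic cells. TET3, the product of the targeted gene, is a dioxygenase that oxidises 5-methylcytosine. H19, Igf2r, Meg3, Cdkn1c and, outside neurons, Grb10 are expressed from the maternal copy in mice, and Igf2, Dlk1, Peg3, Mest and Plagl1 from the paternal copy. H19 and Igf2 share a control region on chromosome 7 that binds the insulator protein CTCF on the maternal copy. Dlk1 and Meg3 share a control region on chromosome 12. Igf2r on chromosome 17 overlaps Airn, an antisense RNA of the paternal copy that silences Igf2r in cis. In fat, Dlk1 is best known as a marker of the precursor stage.

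The sequences that frame these loci were taken from RefSeq tables of build GRCm38.p6. H19 is the host transcript of the microRNA miR-675, whose mature arms are printed with the seed (bases 2 to 8) in capitals because H19 gave the largest rise among the 10 genes.
mmu-miR-675-5p: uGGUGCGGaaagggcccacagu
mmu-miR-675-3p: cUGUAUGCccuaaccgcucagu
The arms carry different seeds. The Mir675 row of the count table was at 0 in all 6 libraries, as were the rows of Mir483 in Igf2, Mir335 in Mest and Mir770 in Meg3. Mature microRNAs carry no poly(A) tail and are not captured by poly(A) selection, so these rows say nothing of their levels.

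Promoter windows of 300 bases, from 250 before to 50 after a transcript start, were found for 8 of the 10 genes, in 15 windows of which some overlap. CpG sites, the substrate of imprinting marks, are in capitals below. The windows of Igf2r (chr17:12769657-12769956, minus strand) and of its overlapping antisense gene Airn (chr17:12741061-12741360, plus strand) are shown because the counts of these overlapping genes are set against each other below. Those of Dlk1 (chr12:109452573-109452872, plus strand) and Meg3 (chr12:109540746-109541045, plus strand) are shown because these neighbours are expressed from opposite parental copies.
Igf2r: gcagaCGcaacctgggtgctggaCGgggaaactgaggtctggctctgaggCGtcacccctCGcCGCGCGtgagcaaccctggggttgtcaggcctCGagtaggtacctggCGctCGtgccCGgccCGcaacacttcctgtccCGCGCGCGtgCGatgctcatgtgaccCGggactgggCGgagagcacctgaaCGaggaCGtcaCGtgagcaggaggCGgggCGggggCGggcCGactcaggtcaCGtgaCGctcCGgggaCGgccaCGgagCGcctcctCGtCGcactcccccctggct
Airn: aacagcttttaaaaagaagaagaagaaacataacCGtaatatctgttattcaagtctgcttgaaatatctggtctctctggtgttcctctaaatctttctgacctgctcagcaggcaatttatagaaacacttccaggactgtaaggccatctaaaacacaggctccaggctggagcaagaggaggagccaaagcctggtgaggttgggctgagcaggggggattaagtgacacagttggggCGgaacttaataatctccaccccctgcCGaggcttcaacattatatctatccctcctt
Dlk1: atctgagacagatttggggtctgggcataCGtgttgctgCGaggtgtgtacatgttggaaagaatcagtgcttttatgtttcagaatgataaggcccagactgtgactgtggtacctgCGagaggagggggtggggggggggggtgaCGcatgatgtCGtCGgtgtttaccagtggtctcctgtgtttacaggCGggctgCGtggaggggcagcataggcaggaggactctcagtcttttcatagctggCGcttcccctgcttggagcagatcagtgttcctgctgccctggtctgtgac
Meg3: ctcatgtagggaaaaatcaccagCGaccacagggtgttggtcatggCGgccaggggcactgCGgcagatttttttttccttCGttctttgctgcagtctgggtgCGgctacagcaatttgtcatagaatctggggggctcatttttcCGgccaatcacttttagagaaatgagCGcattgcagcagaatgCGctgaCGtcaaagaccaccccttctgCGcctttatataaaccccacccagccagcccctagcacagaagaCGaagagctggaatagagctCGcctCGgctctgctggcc
The Igf2r window held 34 CpG sites and the Airn window 3, against a median of 7 over 32851 windows of the table. Dlk1 held 9, and this Meg3 window 13. Across the 15 windows the number ran from 1 in the second Meg3 window to 45 in the first Grb10 window, with a median of 13. The hexamer TGCCGC, the core bound by the imprint protector ZFP57 when methylated, was searched on both strands. It occurred in 6 of the 15 windows and in 11.6% of all windows. The 6 include Mest windows 2 and 3, which overlap almost fully. The hexamer itself holds a CpG, and the part of the higher CpG number of these windows (median 13 against 7) in this difference was not tested. Of the windows printed, Meg3 held it and the other three did not. These matches are descriptions of letters in short windows, and imprinting control regions often lie outside them.

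Among the 9 tested genes, H19 rose and Igf2r fell in KO, and the other 7 did not pass an adjusted p of 0.05 (edgeR's quasi-likelihood test, Benjamini-Hochberg adjustment). The 2 calls are 22.2% of the tested members. Of all 9943 tested genes 3.59% were called, with 1.82% higher and 1.77% lower in KO. WT and KO libraries did not overlap for 6 of the 9, with H19, Meg3 and Cdkn1c higher in KO and Igf2r, Dlk1 and Plagl1 lower. Over all tested genes such separation was found for 20.4%, made up of 10.1% higher and 10.3% lower. The 10 genes were chosen with earlier results known, so the excess over the background is not independent support. The 5 maternally expressed genes had a median log2 fold change of 0.32 and the 4 tested paternally expressed genes one of -0.58, where all tested genes had -0.0024. Of the maternally expressed genes 4 had a positive value, Igf2r being the exception, and the 4 paternally expressed genes all had a negative one. In bulk RNA, fewer cells that express a gene and less RNA of it per cell cannot be told apart.

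**Figure D1:**
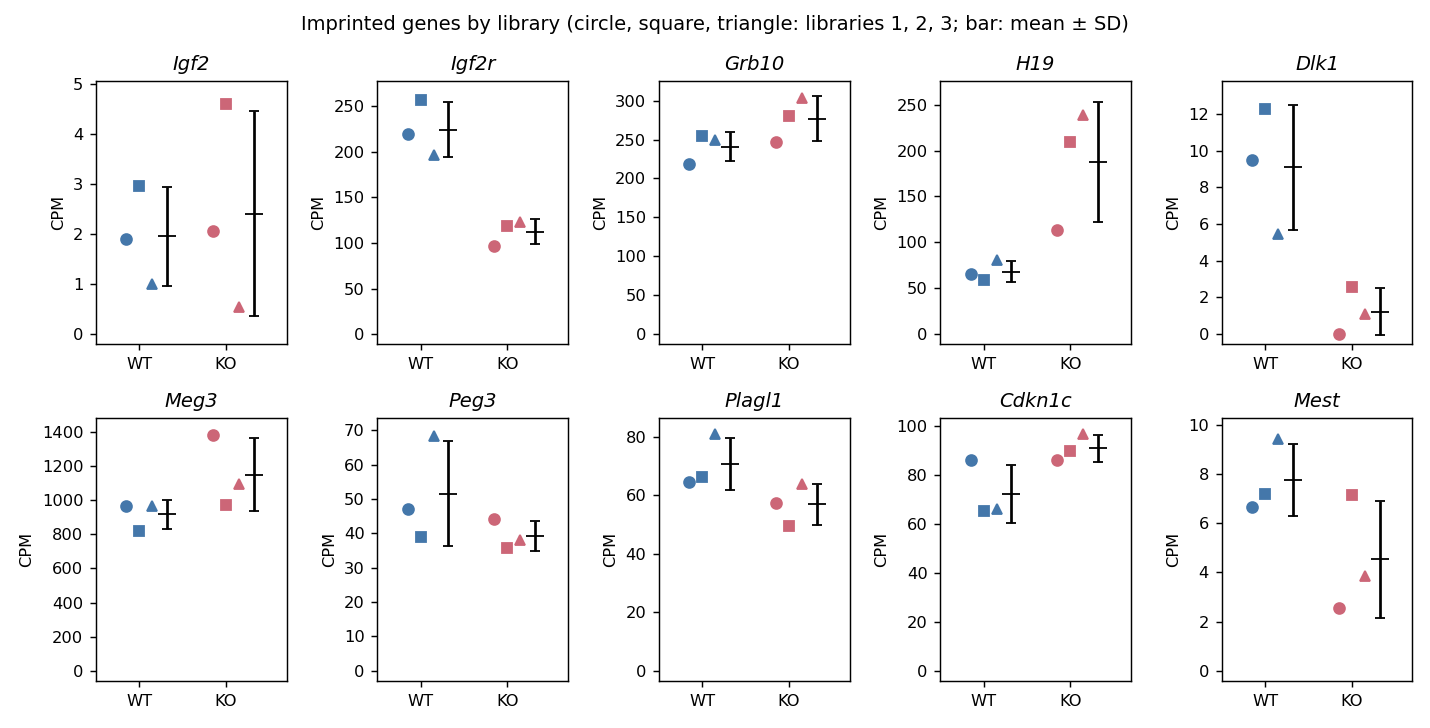
Level of each of the 10 imprinted genes in CPM (linear axes) in the 3 WT libraries (blue) and the 3 KO libraries (red), with circles, squares and triangles for libraries 1, 2 and 3 and black bars for mean ± SD. H19 lies between 58.8 and 80.4 CPM in WT and between 114 and 239 CPM in KO, and Igf2r lies between 197 and 257 CPM in WT and between 96.5 and 123 CPM in KO.

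The first group comprises the insulin-like growth factor Igf2, the receptor that removes it and an adaptor that damps signalling. Igf2r encodes the cation-independent mannose 6-phosphate receptor, which carries IGF2 to the lysosome for degradation and delivers lysosomal enzymes. Igf2r stood at 220, 257 and 197 CPM (read counts scaled to the effective library size) in WT libraries 1 to 3 and at 96.5, 119 and 123 CPM in KO libraries 1 to 3. The groups did not overlap, and the highest KO library lay well below the lowest WT library. The mean fell from 224 ± 30.01 to 113 ± 14.1 CPM (SD, n = 3 each), and the log2 fold change was -0.997 ± 0.16 (SE; approximate 95% interval -1.32 to -0.68; edgeR adjusted p = 0.000113). The Igf2r call was kept in all 6 fits that left out 1 library, with log2 fold changes between -1.09 and -0.89.

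Airn, which silences Igf2r on the paternal copy, overlaps Igf2r on the opposite strand. Its levels were 24.2, 11.0 and 22.8 CPM in WT and 21.0, 22.0 and 16.0 CPM in KO, and the groups overlapped. The Airn log2 fold change was 0.03 ± 0.38 (SE; interval -0.75 to 0.81, edgeR adjusted p = 0.985). No source used here states strand-aware counting, and reads of the shared stretch may therefore have been assigned to either gene or left uncounted. The Airn rows summed to 123 counts in WT and 113 in KO, beside 1465 and 643 counts for Igf2r.

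Igf2, a growth factor of fetal life that is low in most adult mouse tissues, was near the limit of detection. Its counts were 4, 7 and 2 in WT and 4, 9 and 1 in KO, a range in which the groups overlapped. The summed counts of 13 and 14 gave a KO to WT ratio of 1.22, with an exact binomial 95% interval of 0.532 to 2.82 that covers counting error only. A difference at Igf2 within that interval was therefore not detectable at this depth. Grb10 encodes an adaptor that binds the insulin and IGF1 receptors and limits their signalling. Its levels were 219, 255 and 249 CPM in WT and 247, 280 and 304 CPM in KO, and KO library 1 lay inside the WT range. The log2 fold change of Grb10 was 0.20 ± 0.14 (SE; interval -0.08 to 0.47, edgeR adjusted p = 0.528).

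The noncoding RNAs H19 and Meg3 form the second group. H19, a spliced and polyadenylated RNA that restrains growth in the mouse embryo, stood at 65.1, 58.8 and 80.4 CPM in WT and at 114, 209 and 239 CPM in KO. Every KO library lay above every WT library, and KO library 1 lay closest to WT. The mean rose from 68.1 ± 11.1 to 187 ± 65.4 CPM (SD, n = 3 each), or 2.75-fold, and the log2 fold change was 1.46 ± 0.21 (SE; interval 1.04 to 1.88; edgeR adjusted p = 2.5e-05). The call was kept in all 6 fits that left out 1 library, and the log2 fold change ran from 1.25 without KO library 3 to 1.72 without KO library 1. H19 lies next to Igf2, which has 27 counts in all 6 libraries together, so a reciprocal change of the pair could not be examined.

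H19 is abundant in skeletal muscle, and markers of that tissue were measured beside it. The 12 muscle markers summed to 75.1, 20.7 and 93.3 CPM in WT and to 74.4, 127 and 163 CPM in KO, so that the groups overlapped. Of the 12 markers 6 were tested, all with positive log2 fold changes and a median of 1.03, and 0 passed by edgeR, DESeq2 or limma-voom, with 1 higher at an unadjusted p under 0.05 (15.5% of all tested genes in either direction). The 4 markers of muscle precursor cells, Pax7, Myod1, Myf5 and Myog, were at 0 in all 6 libraries. WT library 1 and KO library 1 had nearly equal muscle sums, and their H19 levels were 65.1 and 114 CPM. WT library 2 was the lowest in both measures, and without it the log2 fold change of H19 was 1.361. KO libraries 2 and 3 were the highest in both, with H19 at 209 and 239 CPM. Within each genotype, H19 and the muscle sum ranked the libraries in the same order. The part of muscle RNA in the H19 result was not tested.

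Meg3, the maternal RNA of the Dlk1 locus, was the member with the most counts. It stood at 963, 820.4 and 968 CPM in WT and at 1384, 969.9 and 1091 CPM in KO. The groups did not overlap, although KO library 2 lay only just above WT library 3. The log2 fold change of Meg3 was 0.32 ± 0.12 (SE; interval 0.08 to 0.57) and did not pass over all genes (edgeR adjusted p = 0.144). It passed only in the fit without KO library 2 (log2 fold change 0.43, adjusted p = 0.0358), and it was 0.17 without KO library 1. Rian and Mirg, further maternal RNAs of the locus, had few counts. Rian came to 27 counts in WT and 41 in KO (log2 fold change 0.80 ± 0.71, edgeR adjusted p = 0.664), and Mirg came to 26 and 14 counts and was not tested.

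**Figure D2:**
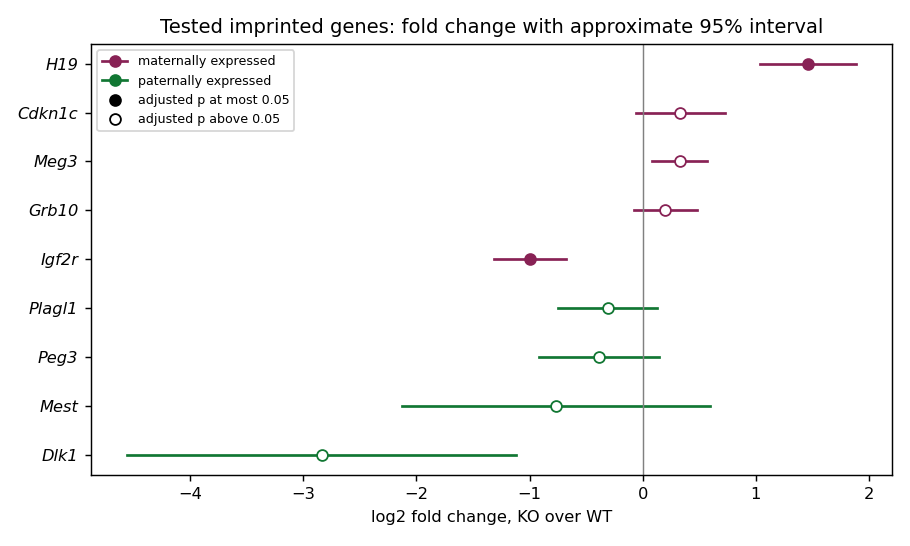
Log2 fold change of KO over WT for the 9 tested genes with approximate 95% intervals, purple for maternally and green for paternally expressed genes, filled where the adjusted p was at most 0.05. H19 at 1.46 and Igf2r at -0.997 are filled, and Dlk1 at -2.84 has the widest interval.

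Dlk1 encodes a membrane-bound and secreted protein, also called Pref-1, that marks fat cell precursors and inhibits their differentiation. Its counts were 20, 29 and 11 in WT and 0, 5 and 2 in KO. The groups did not overlap, and KO library 1 was at 0, where 3 counts would correspond to 1.54 CPM. WT averaged 9.08 ± 3.43 CPM and KO 1.22 ± 1.28 CPM (SD, n = 3 each), with a log2 fold change of -2.84 ± 0.84 (SE; interval -4.56 to -1.12). The edgeR adjusted p was 0.0544 and missed the threshold. It was 0.0448 without the filter on low counts, and between 0.0526 and 0.270 when 1 library was left out. Summed over libraries, the ratio of KO to WT was 0.132, with an exact binomial 95% interval of 0.0509 to 0.289 for counting error alone. At this locus Dlk1, the paternal gene, was lower in all 3 KO libraries and Meg3, the maternal RNA, was higher in all 3, and neither difference passed the test over all genes.

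The fit was repeated without each library in turn for the 4 genes with the smallest p-values of the group.

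**Figure D3:**
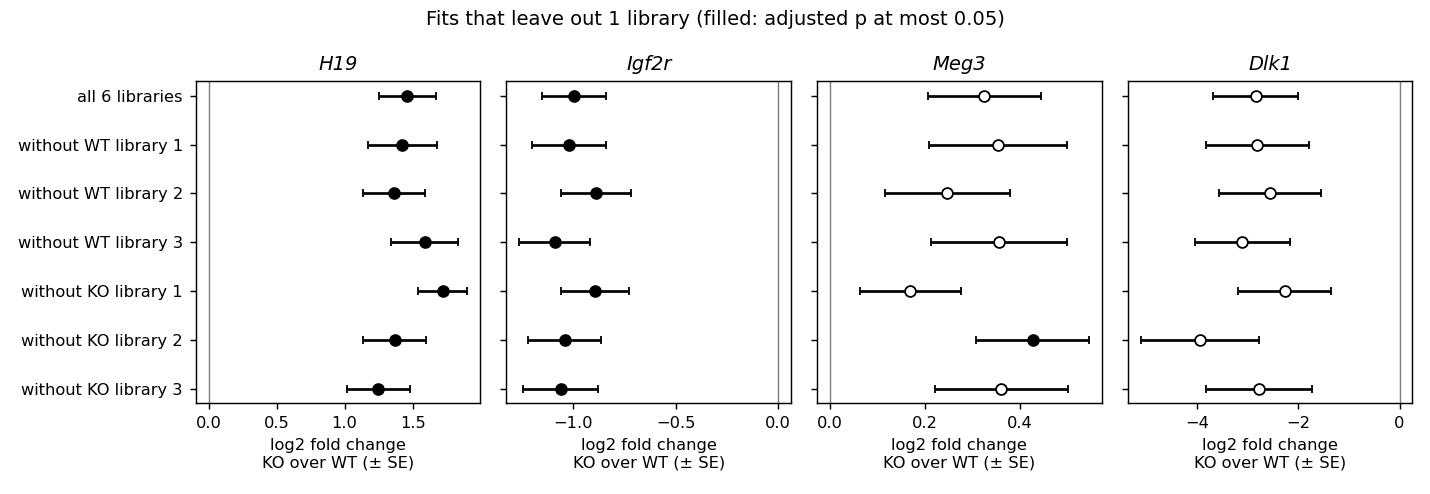
Log2 fold change of KO over WT (± SE) for H19, Igf2r, Meg3 and Dlk1 with all 6 libraries and in the 6 fits that each leave out 1 library, filled where the adjusted p was at most 0.05. H19 and Igf2r are filled throughout, Meg3 only without KO library 2, and Dlk1 in none of the 7 fits.

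Plagl1 and Peg3 encode zinc finger transcription factors, and both act in networks of growth control. Plagl1 stood at 64.7, 66.5 and 80.9 CPM in WT and at 57.5, 49.6 and 63.8 CPM in KO. The highest KO library lay just below the lowest WT library. The Plagl1 log2 fold change was -0.31 ± 0.21 (SE; interval -0.75 to 0.13, edgeR adjusted p = 0.538). Peg3 stood at 47.1, 38.9 and 68.5 CPM in WT and at 44.1, 35.8 and 38.0 CPM in KO, with overlap. Its log2 fold change was -0.39 ± 0.26 (SE; interval -0.91 to 0.14, edgeR adjusted p = 0.522).

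Cdkn1c encodes p57, an inhibitor of cyclin-dependent kinases that holds cells out of the cycle. Its levels were 86.1, 65.2 and 66.0 CPM in WT and 86.2, 89.98 and 96.8 CPM in KO. WT library 1 and KO library 1 were almost level, so the groups were separate by a margin far below their spread. The Cdkn1c log2 fold change was 0.33 ± 0.19 (SE; interval -0.06 to 0.72, edgeR adjusted p = 0.441). Kcnq1ot1, the paternal RNA that silences Cdkn1c in cis, averaged 194 CPM over the WT libraries and 237 CPM over the KO libraries (edgeR adjusted p = 0.336). Mest encodes a membrane enzyme of the hydrolase fold whose level in mouse fat tracks fat mass expansion. Its counts were 14, 17 and 19 in WT and 5, 14 and 7 in KO. KO library 2, at 7.16 CPM, lay inside the WT range of 6.66 to 9.43 CPM. The Mest log2 fold change was -0.77 ± 0.67 (SE; interval -2.13 to 0.59, edgeR adjusted p = 0.654), an interval that holds both no change and a fall of more than 4-fold.

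The signs by parental copy among the 9 tested members, of which 7 did not pass, were compared with those of 56 further imprinted genes. Of these 28 were tested, and 0 passed by edgeR, DESeq2 or limma-voom, against 1 higher and 2 lower by an unadjusted p under 0.05, which 15.5% of all tested genes reached. Among the 14 tested maternally expressed genes, 6 had positive and 8 negative values with a median of -0.09. Among the 13 tested paternally expressed genes, 7 had positive and 6 negative values with a median of 0.03. The smallest p-values on the maternal side belonged to Atp10a, a phospholipid flippase, with a log2 fold change of 0.99 ± 0.43 (adjusted p = 0.241), and Pon2, a paraoxonase, with -0.37 ± 0.22 (adjusted p = 0.466). On the paternal side they belonged to Sgce, which encodes epsilon-sarcoglycan, with -0.60 ± 0.23 (adjusted p = 0.163), and Gab1, a docking protein of growth factor receptors that is imprinted in mouse placenta, with -0.85 ± 0.33 (adjusted p = 0.187). Gnas, a locus with transcripts of either parental copy, had -0.13 ± 0.13 (adjusted p = 0.705). Some of these genes are imprinted in few tissues, and their allelic state in preadipocytes was not measured. Of the 56 genes 13 were at 0 in every library, among them Snrpn, Snurf and Phlda2. Gapdh, a housekeeping gene, reached at most 1 count in any library, so genes at 0 are given only as listed at 0.

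**Figure D4:**
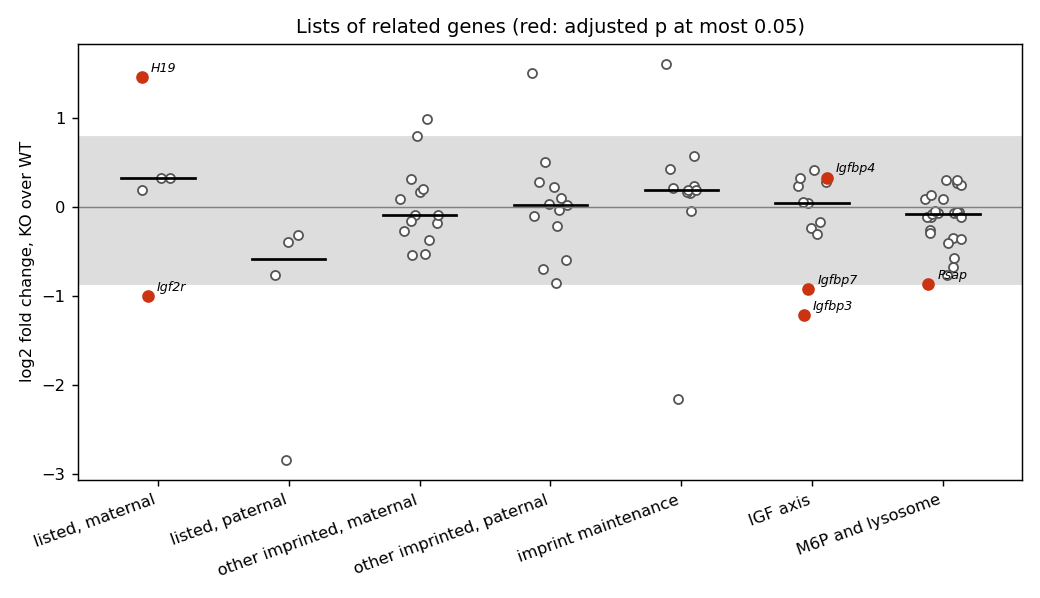
Log2 fold change of KO over WT for each tested gene of 7 lists, with a black line at the list's median, red points for an adjusted p of at most 0.05 and a grey band from the 5th to the 95th percentile of all tested genes (-0.86 to 0.79). Red points are H19 and Igf2r among the listed genes, Igfbp3, Igfbp4 and Igfbp7 in the IGF axis and Psap among lysosomal genes, and there are none among the other imprinted genes.

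Factors that set, maintain or read imprints were examined because they bear on the marks. Of 18 such genes 12 were tested, and 0 passed by edgeR, DESeq2 or limma-voom, with 1 higher and 1 lower at an unadjusted p under 0.05, beside 15.5% of all tested genes. Zfp57 itself was at 0 in every library. Hells, a chromatin remodeller needed for DNA methylation, had 24, 20 and 13 counts in the WT libraries, while KO held 5, 2 and 4 (log2 fold change -2.15 ± 0.74, edgeR adjusted p = 0.110). Dnmt3b, a de novo methyltransferase, had 6, 10 and 8 counts in the WT libraries, while KO held 13, 26 and 26 (1.61 ± 0.63, edgeR adjusted p = 0.182). Both sets of libraries were separate, as they were for 20.4% of all tested genes. The median over the 12 was 0.19. Among the TET family, Tet1 held between 11 and 45 counts per library (edgeR adjusted p = 0.154) and Tet2 between 90 and 144.

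The IGF axis, in which Igf2, Igf2r and Grb10 act, had 12 of 20 listed genes tested, of which 1 rose, 2 fell and 9 did not pass by edgeR. These calls are 25% of the tested members, beside 3.59% of all tested genes, and the median log2 fold change was 0.05. This list was also chosen with earlier results known, so the excess is not independent support. DESeq2 called 2 higher and 1 lower, and limma-voom 1 higher and 1 lower. The gene called by DESeq2 alone was Igfbp6, an IGF-binding protein with a preference for IGF2 (log2 fold change 0.41 ± 0.13, edgeR adjusted p = 0.0693). Igfbp7, a secreted protein that binds IGFs with low affinity, stood at 773, 920.3 and 789 CPM in WT and at 406, 483 and 422 CPM in KO. Its groups were far apart, and it fell by 0.92 ± 0.12 on the log2 scale (SE; edgeR adjusted p = 4.97e-06). Igfbp4, an inhibitory IGF-binding protein, rose by 0.33 ± 0.09 (edgeR adjusted p = 0.0428), a call kept only without KO library 1 among the fits that left out 1 library (adjusted p up to 0.169). Igfbp3, the main IGF carrier of the circulation, fell by 1.21 ± 0.35 (edgeR adjusted p = 0.0492), a call that likewise held only without KO library 1 (adjusted p up to 0.266 in the other fits) and that DESeq2 and limma-voom did not make. The receptor Igf1r had a log2 fold change of 0.05 (edgeR adjusted p = 0.944).

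The mannose 6-phosphate route is the other task of the Igf2r protein. A mixed list of its genes, of lysosomal genes such as Lamp1 and Lamp2, and of Plau, Plaur and Tgfb1 was examined. It is not limited to cargo of the receptor. Of its 27 members 25 were tested, with 0 up, 1 down and 24 not passing by edgeR. Thus 4.0% were called, beside 3.59% of all tested genes. Of the 25 tested members 18 had negative values, with a median of -0.07. The unadjusted p was under 0.05 for 7 with a negative and 0 with a positive value. Of all 9943 tested genes 779 reached it with a negative and 758 with a positive value, 15.5% in either direction. DESeq2 and limma-voom also called 0 up and 1 down. The member that fell was Psap, which encodes prosaposin, the precursor of the saposins that activate lysosomal sphingolipid hydrolases. Psap stood at 2331, 2827 and 2094 CPM in WT and at 1221, 1751 and 1019 CPM in KO. All KO libraries lay below all WT libraries, and the log2 fold change was -0.86 ± 0.14 (SE; edgeR adjusted p = 0.000119), a call kept in all 6 fits that left out 1 library. The small mannose 6-phosphate receptor M6pr had -0.26 ± 0.34 (interval -0.94 to 0.43, edgeR adjusted p = 0.795). Among 8 let-7 targets, listed because H19 RNA can bind let-7, 2 were tested and 0 passed by edgeR, DESeq2 or limma-voom, with 0 at an unadjusted p under 0.05. These were Igf2bp2, with 0.33 ± 0.36 (adjusted p = 0.743), and Dicer1, with 0.10 ± 0.22 (adjusted p = 0.885).

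Neighbours on the chromosome were read from the gene order of the RefSeq table, taking the 3 nearest tested genes on each side of each member. Of 46 distinct neighbours outside the 10 genes, 2 rose and 0 fell by edgeR, or 4.35%, beside 3.59% of all tested genes. An unadjusted p under 0.05 was reached by 7 of the 46 with a positive and 0 with a negative value. Over all 9943 tested genes it was reached by 758 with a positive and 779 with a negative value, 15.5% in either direction. DESeq2 called 3 higher and limma-voom 2, with 0 lower by either. The neighbours of H19 and of Igf2r did not pass. Next to Igf2r, Map3k4, a kinase of stress signalling, had a log2 fold change of 0.57 (edgeR adjusted p = 0.272). Agpat4, a lysophosphatidic acid acyltransferase, had one of 0.55 (edgeR adjusted p = 0.128). Of the other neighbours of Igf2r, Mrpl18 had 0.25, Tcp1 0.23, Airn 0.03 and Qk -0.08. Tnnt3, a muscle troponin gene near H19 and one of the muscle markers above, had 1.25 (edgeR adjusted p = 0.352). Egfr, the EGF receptor gene beyond Grb10, stood at 413, 388 and 410.1 CPM in WT and at 670.2, 702 and 671 CPM in KO and rose by 0.75 ± 0.11 (edgeR adjusted p = 7.14e-05). Dync1h1, the dynein heavy chain gene beyond Meg3, rose by 0.53 ± 0.15 (edgeR adjusted p = 0.0371), a call that survived only the omission of KO library 2 (adjusted p up to 0.237 in the other fits).

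The genes whose levels most resembled those of H19 and Igf2r were sought by Pearson correlation of log2(CPM + 1) over the 6 libraries, as a description. The closest to H19 were C7, a complement component (r = 0.997), Parp9, an ADP-ribosyltransferase subunit of the interferon response (0.995), and 9330159F19Rik (0.994). The closest to Igf2r were Actn1, an actin crosslinker (0.993), Ebf1, a transcription factor of fat cell precursors (0.992), and Fut8, a fucosyltransferase (0.992). All 6 points of each correlation share the genotype split, and 133 genes had r above 0.9 with H19 and 260 with Igf2r.

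Total counts per library ran from 1831218 to 2374978. The 10 preadipocyte markers, including Pdgfra, Cd34 and Dcn, all had counts and summed to between 42531 and 43715 CPM in WT and between 47351 and 58255 CPM in KO. Their sum is made up mostly of Col1a1 and Dcn, and by edgeR 4 of the 10 rose, 2 fell and 4 did not pass. Of all 9943 tested genes 3.59% were called in either direction. Those that rose were Cd34, Ly6a, Pi16 and Col1a1, by 0.37 to 0.54 on the log2 scale. Pdgfra fell by 0.52 ± 0.12 (edgeR adjusted p = 0.00598), and F3, the tissue factor gene, fell by 2.99 ± 0.39, from 54.2 ± 23.2 to 6.79 ± 4.13 CPM (SD, n = 3 each; edgeR adjusted p = 6.42e-06). The part of these differing precursor markers in the H19 and Igf2r results was not tested. The adipocyte markers Plin1, Cidec, Lep and Retn were at 0 throughout, as were the leukocyte gene Ptprc and the macrophage genes Adgre1, Lyz2 and C1qa. With Adipoq, the adipocyte markers summed to at most 0.95 CPM in WT and 0.55 CPM in KO. With Cd68 and Csf1r, the leukocyte and macrophage markers summed to between 2.12 and 4.75 CPM in WT and between 3.58 and 8.80 CPM in KO. Endothelial markers summed to between 136 and 153 CPM in WT and between 139 and 173 CPM in KO. Of these 6 markers 1 was tested, Tek, with a log2 fold change of 0.19 (edgeR adjusted p = 0.642). The sum over erythroid markers was 151 CPM in KO library 1 and at most 39.1 CPM elsewhere. Without KO library 1 the log2 fold change was 1.72 for H19 and -0.90 for Igf2r. Pericyte and smooth muscle markers summed to between 148 and 181 CPM in WT and between 54.9 and 118 CPM in KO, lower in KO as Igf2r was. Abcc9 gave 645 counts of this sum in WT and 360.0 in KO (edgeR adjusted p = 0.118), and Notch3 fell by 1.56 on the log2 scale (edgeR adjusted p = 0.00243). Kcnj8, the remaining tested marker, had a log2 fold change of -0.09 (edgeR adjusted p = 0.974). Higd1b was at 0, and Acta2, Cspg4, Rgs5 and Myh11 had at most 23 counts per group. Of these, Rgs5 and Myh11 had more counts in KO, and Acta2 and Cspg4 had fewer. The part of pericyte RNA in the Igf2r result was not tested.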

How the data were processed

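The report concerns 6 RNA-seq libraries, 3 per genotype. The authors deposited whole-number read counts by gene symbol, without normalization. Tools named in the submitters' processing notes, without roles, are HISAT2 2.2.1 and HTSeq 0.9.1 beside Bismark 0.23.0, Trim Galore 0.6.6 and DESeq2 1.36.0. The builds named there are GRCm39, mm39 and mm10. Strand-aware counting is not stated in those notes. In the WGBS region table, 0 of 10 region edges that would fall within GRCm38.p6 promoter windows lay on a CpG, so no region was placed. Its 2 columns of mean methylation are numbered and not named by genotype, and they were not used.

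The test was run in edgeR 4.0.16 under R 4.3.3 (filterByExpr with minimum count 10 and minimum total 15, TMM factors, quasi-likelihood test, Benjamini-Hochberg adjustment over 9943 genes at 0.05). Kept genes held at least 99.2% of each library. CPM use effective library sizes. Standard errors were derived from the log2 fold change and its F statistic, and intervals are approximate 95% intervals. A count of 0 allows up to 1.27 to 1.65 CPM, the worth of 3 counts, for counting error only. Alternatives were DESeq2 1.42.0, limma-voom (limma 3.58.1), normalization by RLE or upper quartile, no filter or a stricter one, the replicate number as a block, and omission of each library. The script was tested on simulated data. Replicate libraries differed by more than counting noise (chi-square per degree of freedom 4.05 to 7.13), and none were merged.

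The members and lists were chosen with earlier results of these data known. Named were all 10 genes, up to 4 passing members per list or otherwise the 2 with the lowest p, passing neighbours, Tet genes, and the 3 closest genes by correlation to each member that passed. Airn, Kcnq1ot1, Rian, Mirg, M6pr, Map3k4, Agpat4, Tnnt3, Igf1r, Igfbp6, Gapdh, Zfp57 and genes listed at 0 were named after their values were seen, as were marker genes. Reads of the stretch shared by Igf2r and Airn could be assigned to either gene or left uncounted. Sequences were matched by symbol, and 2 of the 10 genes (H19 and Cdkn1c) were without a promoter window.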

Additional observations from a re-analysis of the deposited data

How the results depend on the processing

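H19 and Igf2r kept their direction and their call in all 13 alternatives, with log2 fold changes of 1.25 to 1.72 and -1.09 to -0.89. Of 113 values for the tested members under these alternatives, 110 stayed on the same side of the threshold, 3 crossed it to a call (Dlk1 without the filter and under the block, Meg3 without KO replicate 2) and 0 changed sign. Igf2 had an adjusted p only without the filter. DESeq2 gave Igf2, Dlk1 and Mest no adjusted p, and the stricter filter left out Dlk1 and Mest. The number of calls over the whole table was 357 and ran from 158 to 370 when 1 library was left out, with 203 without WT replicate 1, 226 without WT replicate 2 and 158 without KO replicate 3. Calls among the 10 genes ran from 2 to 3 in the same fits. Dicer1 ran from -0.014 without WT replicate 2, the one change of sign, to 0.17, and the cause was not tested. Among 305 values of other named genes, 26 lost and 8 gained a call. Distances of methylation regions to the genes were not run, since no region was placed. Libraries with the same number hardly deviated together (r = 0.01, 0.05 and 0.03), beside r of -0.06 to 0.04 for libraries of different number. WT libraries 2 and 3 correlated best with their own number, and WT library 1 did not. These values are small, and the numbers were not taken as pairs. With the replicate block 501 genes were called, and among the members H19 (1.41), Igf2r (-0.99) and Dlk1 (-2.97, adjusted p = 0.0428). Depth limits Igf2, Dlk1, Mest and the RNAs Rian and Mirg.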
